A study of Homo sapiens with 24 samples.

Results

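Human mitochondrial DNA encodes 7 subunits of respiratory complex I, and the mRNAs of these 7 genes, out of 62754 genes in the count table, are described here. They were chosen by gene identifier: MT-ND1 (ENSG00000198888), MT-ND2 (ENSG00000198763), MT-ND3 (ENSG00000198840), MT-ND4 (ENSG00000198886), MT-ND4L (ENSG00000212907), MT-ND5 (ENSG00000198786) and MT-ND6 (ENSG00000198695). The data are poly(A)-enriched RNA-seq of RKO cells, a human colon carcinoma line. All cells descended from 1 clone with doxycycline-inducible Cas9, carried a constitutive sgRNA, were sorted in bulk, and received 100 ng/mL doxycycline for 5 days. The guide was either sgERH, against ERH, a small conserved nuclear protein that binds RNA-processing factors, or sgAAVS1, against a safe-harbour site that served as the control. Each guide was combined with 4 h of 25 μg/mL cycloheximide (CHX, an inhibitor of cytosolic translation) or its solvent DMSO. Cells were then divided into a nuclear and a cytoplasmic fraction. With 3 libraries per group, the 8 groups were sgERH and sgAAVS1 nuclei with CHX, sgERH and sgAAVS1 nuclei with DMSO, sgERH and sgAAVS1 cytoplasm with CHX, and sgERH and sgAAVS1 cytoplasm with DMSO.

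Complex I, NADH dehydrogenase, is the first proton pump of the respiratory chain and takes electrons from NADH. Its membrane arm is built around the 7 mitochondrially encoded ND subunits, while the arm that reaches into the matrix is made from nuclear genes. Mitochondrial DNA is transcribed from each strand as long precursors that are cut at the tRNAs lying between most genes, and the mRNAs are translated by the mitochondrion's own ribosomes, which CHX does not block. The genes have no introns, and the deposited intron tables held 0 rows on mitochondrial DNA.

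The 3′ ends of these genes are shown because the libraries were selected for poly(A) tails, and in 4 of the 7 genes the stop codon is completed only when the tail is added. Each line gives the last bases of the gene as annotated on GRCh38, 5′ to 3′ on the coding strand, with the terminal codon, or the part of it that the DNA holds, in capitals.
MT-ND1: atctccagcattccccctcaaaccTA
MT-ND2: tccccttttatactaataatcttaT
MT-ND3: caaaaaggattagactgaaccgaaT
MT-ND4: gacatcattaccgggttttcctctT
MT-ND4L: cataacctaaacctactccaatgcTAA
MT-ND5: atcctaaccctactcctaatcacaTAA
MT-ND6: gtaattgagattgctcgggggaatAGG
MT-ND1, at MT:3307-4262, stops at TA, and MT-ND2 (MT:4470-5511), MT-ND3 (MT:10059-10404) and MT-ND4 (MT:10760-12137) each stop at a single T. MT-ND4L (MT:10470-10766) and MT-ND5 (MT:12337-14148) carry a whole TAA. MT-ND6 (MT:14149-14673) ends with AGG, is the only one of the 7 on the minus strand, and is known in human cells as the mitochondrial mRNA without a stable poly(A) tail.

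Neighbouring genes limit how far reads can be assigned. MT-ND4L and MT-ND4 lie on 1 bicistronic mRNA and overlap by 7 bases. The overlap, from the start codon of MT-ND4 to the stop codon of MT-ND4L, stands in capitals in the last stretch of the MT-ND4L gene together with the bases before it.
Overlap of MT-ND4L and MT-ND4: cctactccaATGCTAA
MT-ND5 and MT-ND6 meet end to end on opposite strands with 0 bases of overlap. Whether the counting used the strand is not stated, so reads over that boundary, and reads from either strand of a gene, cannot be told apart. MT-ND3 and MT-ND4L are short, with 346 and 297 bases, and their effective lengths, the number of positions at which a fragment could start, were only 37.0 to 42.2 and 14.3 to 16.0 bases. Counts of MT-ND4L were therefore few, with 22 to 75 per nuclear library. Nuclear pseudogene copies took at most 2.56% of the counts of a member and its copies together, the highest share being that of MT-ND6.

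Library totals ranged from 27.8 to 79.5 M counts (M, mega-counts). The epithelial markers KRT18, KRT8, CDX2 and EPCAM were at or above 1 count per M library counts (CPM, after TMM scaling) on average in every group, while CDH1, LGR5, KRT20, VIL1 and MUC2 were not. At most 1 of 6 fibroblast markers and 2 of 6 leukocyte markers reached 1 CPM on average in any group, and CD3E was at 0 in every library. PTPRC, which marks leukocytes, stayed at or below 0.249 CPM, and CD68, a lysosomal protein of macrophages and other cells, led that list at 59.1 to 393 CPM. The summed leukocyte list of every sgERH library was above that of every sgAAVS1 library in all 4 settings, furthest in nuclei with DMSO (157 to 218 CPM with sgERH, against 59.6 to 95.1 CPM with sgAAVS1), and its part in the results was not tested. ERH, the gene targeted, had 72.9, 86.9 and 59.4 CPM in sgERH cytoplasm with DMSO, against 137, 158 and 152 CPM in sgAAVS1 cytoplasm. With CHX the cytoplasmic values were 68.4, 81.0 and 61.6 CPM with sgERH, against 118, 122 and 107 CPM with sgAAVS1. In the nucleus with DMSO they were 14.9, 12.5 and 11.3 CPM with sgERH, against 16.5, 21.8 and 15.6 CPM with sgAAVS1. In the nucleus with CHX they were 11.9, 16.8 and 11.8 CPM with sgERH, against 15.6, 14.2 and 14.1 CPM with sgAAVS1. ERH mRNA was lower with sgERH in 3 of the 4 settings by the gene test and did not pass it in the nucleus with CHX, where the libraries overlapped (log2 fold change -0.12, adjusted p = 0.590, edgeR).

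The 7 mRNAs together made up 2.19 ± 0.20% of cytoplasmic counts with sgERH and DMSO, against 1.34 ± 0.09% with sgAAVS1 and DMSO (mean ± SD, n = 3 each). With CHX they made up 1.68 ± 0.09% with sgERH, against 1.02 ± 0.03% with sgAAVS1. In nuclear libraries the share was 0.240 ± 0.016% with sgERH and DMSO, against 0.159 ± 0.022% with sgAAVS1, and with CHX it was 0.244 ± 0.055% with sgERH, against 0.126 ± 0.017% with sgAAVS1. The sgERH share was above every sgAAVS1 library in all 4 settings. These are shares of the poly(A)-selected RNA sequenced, with no spike-in stated, and capture of each mRNA by the selection was not measured. More mitochondrial RNA per cell and less of the other RNA therefore cannot be told apart. Nor can fewer cells of a kind and less RNA per cell.

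Levels of different genes were compared on the TPM scale, which is per length. In sgERH cytoplasm with DMSO, MT-ND4 had 11276 ± 1465 TPM, MT-ND3 10136 ± 716, MT-ND2 9484 ± 1027, MT-ND1 5981 ± 547, MT-ND5 2691 ± 531, MT-ND4L 1980 ± 689 and MT-ND6 114 ± 72.8 (mean ± SD, n = 3). In sgAAVS1 cytoplasm with DMSO the order was MT-ND4 with 7305 ± 633 TPM, MT-ND2 with 6752 ± 324, MT-ND3 with 3938 ± 713, MT-ND1 with 2941 ± 231, MT-ND5 with 1169 ± 82.8, MT-ND4L with 895 ± 305 and MT-ND6 with 91.9 ± 19.95. Libraries overlapped between MT-ND4 and its next neighbour, and between MT-ND5 and MT-ND4L, with both guides. They also overlapped between MT-ND3 and MT-ND2 with sgERH and between MT-ND3 and MT-ND1 with sgAAVS1. The place of MT-ND3, and the nearness of MT-ND4L to MT-ND5, rest on effective length. On the scale of CPM per kb of annotated gene MT-ND3 stood below MT-ND5 and above MT-ND4L, at 1045 ± 132 in sgERH and 439 ± 81.0 in sgAAVS1 cytoplasm. On that scale MT-ND4L had 87.1 ± 28.2 in sgERH cytoplasm, against 1823 ± 275 for MT-ND5. In sgAAVS1 cytoplasm MT-ND4L had 43.7 ± 14.4, against 915 ± 43.5 for MT-ND5. The TPM of MT-ND4L is therefore a weak guide to its level beside the other genes.

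**Figure D1:**
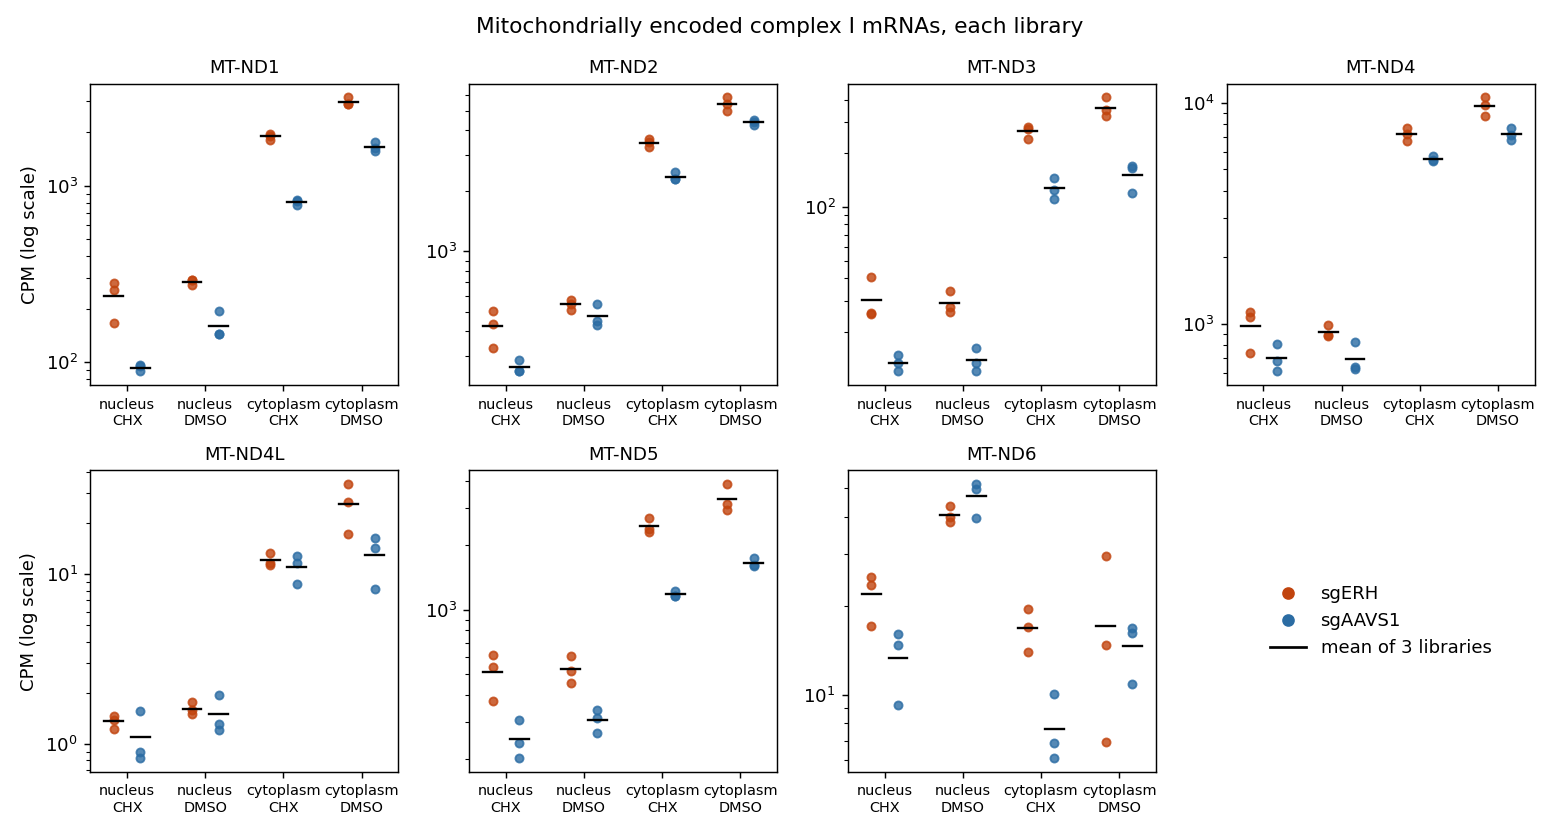
CPM of each mRNA (y axis, log scale, a range of its own in each panel) in every library, by fraction and treatment (x axis), with sgERH in red left of sgAAVS1 in blue; points are libraries and bars the mean of 3. MT-ND1, MT-ND3 and MT-ND5 were separated by guide in all 4 settings. The share of all genes separated in this way was not counted. By CPM, scaled within each fraction, MT-ND6 was the only one of the 7 with a higher mean in the nucleus than in the cytoplasm.

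The first comparison asked how the mRNAs differed in the cytoplasm when ERH was targeted. With DMSO, 6 of the 7 were higher with sgERH and 0 were lower at an adjusted p of at most 0.05 (edgeR quasi-likelihood F test, Benjamini-Hochberg adjustment over all genes), where 28.4% of all genes tested were called higher. The median log2 fold change was 0.85 for the 7 mRNAs and 0.04 for all genes. With the study's size rule, a log2 fold change of at least 1, only MT-ND3 was called higher, against 9.3% of all genes. MT-ND5 and MT-ND4L lay just under it, each at 0.995. Overlap of libraries between the guides is given below for single mRNAs. The share of all genes without overlap was not counted.

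MT-ND3, the short subunit beside the quinone site, had 348, 412 and 324 CPM in sgERH cytoplasm with DMSO, against 120, 167 and 169 CPM in sgAAVS1 cytoplasm. Every sgERH library was above every sgAAVS1 library, and the log2 fold change was 1.25 ± 0.12 (SE, adjusted p = 3.24e-07, edgeR). Effective length differed with the guide, at 41.4 ± 1.22 bases with sgERH and 38.6 ± 1.40 bases with sgAAVS1, and with an offset for it the log2 fold change was 1.16. MT-ND5, a large antiporter-like subunit at the far end of the membrane arm, had 2915, 3130 and 3866 CPM with sgERH, against 1616, 1608 and 1748 CPM with sgAAVS1. The groups did not overlap, and the log2 fold change was 1.00 ± 0.08 (edgeR, adjusted p = 4.78e-08). MT-ND1, the subunit that joins the membrane arm to the matrix arm and helps form the quinone site, had 2888, 2881 and 3162 CPM with sgERH, against 1572, 1625 and 1763 CPM with sgAAVS1. Its log2 fold change was 0.85 ± 0.05 (edgeR, adjusted p = 2.15e-09), again without overlap.

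MT-ND4L had 17.2, 26.5 and 33.9 CPM with sgERH, against 8.20, 14.3 and 16.4 CPM with sgAAVS1. The groups did not overlap, but the lowest sgERH and the highest sgAAVS1 library were close, and the log2 fold change of 1.00 carried an SE of 0.23 (edgeR, adjusted p = 0.00157). MT-ND4 and MT-ND2, which like MT-ND5 are antiporter-like subunits, were the most abundant by counts and moved least among those that passed. MT-ND4 had 8729, 9754 and 10562 CPM with sgERH, against 6747, 7158 and 7642 CPM with sgAAVS1, a log2 fold change of 0.43 ± 0.06 (edgeR, adjusted p = 2.97e-05). MT-ND2 had 5006, 5410 and 5829 CPM with sgERH, against 4243, 4397 and 4480 CPM with sgAAVS1, a log2 fold change of 0.31 ± 0.06 (edgeR, adjusted p = 1.77e-04). MT-ND6 had 14.8, 29.5 and 6.91 CPM with sgERH, against 10.9, 16.2 and 16.9 CPM with sgAAVS1. Its sgERH libraries lay on both sides of all sgAAVS1 libraries, and the log2 fold change of 0.21 ± 0.34 did not pass (edgeR, adjusted p = 0.617) and became -0.43 without sgERH replicate 2.

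Under CHX in the cytoplasm, 6 of the 7 were again higher with sgERH and 0 lower, where 25.3% of all genes were called higher. MT-ND1, MT-ND3, MT-ND5 and MT-ND6 also met the size rule, against 5.79% of all genes. MT-ND1 had 1815, 1967 and 1919 CPM with sgERH, against 780, 822 and 825 CPM with sgAAVS1, a log2 fold change of 1.23 ± 0.05 (edgeR, adjusted p = 2.36e-10). MT-ND3 had 276, 281 and 242 CPM with sgERH, against 146, 125 and 111 CPM with sgAAVS1, a log2 fold change of 1.06 ± 0.12. MT-ND5 had 2396, 2302 and 2694 CPM with sgERH, against 1164, 1157 and 1219 CPM with sgAAVS1, likewise a log2 fold change of 1.06 ± 0.08. The means of these 3 mRNAs were 2.09 to 2.35 times as high with sgERH, with no overlap between the guides.

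MT-ND2 had 3290, 3615 and 3515 CPM with sgERH and CHX, against 2284, 2277 and 2474 CPM with sgAAVS1 and CHX, a log2 fold change of 0.57 ± 0.06. MT-ND4 had 6734, 7227 and 7697 CPM with sgERH, against 5520, 5434 and 5726 CPM with sgAAVS1, a log2 fold change of 0.38 ± 0.06. Both mRNAs were separated by guide. MT-ND6 had 16.95, 19.5 and 14.01 CPM with sgERH, against 10.03, 6.84 and 6.11 CPM with sgAAVS1. The log2 fold change was 1.14 ± 0.35 (edgeR, adjusted p = 0.0120), and without sgAAVS1 replicate 3 the adjusted p was 0.0570. MT-ND4L had 11.6, 11.3 and 13.3 CPM with sgERH, against 11.6, 12.9 and 8.69 CPM with sgAAVS1, which overlapped (log2 fold change 0.13 ± 0.24, adjusted p = 0.679, edgeR).

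**Figure D2:**
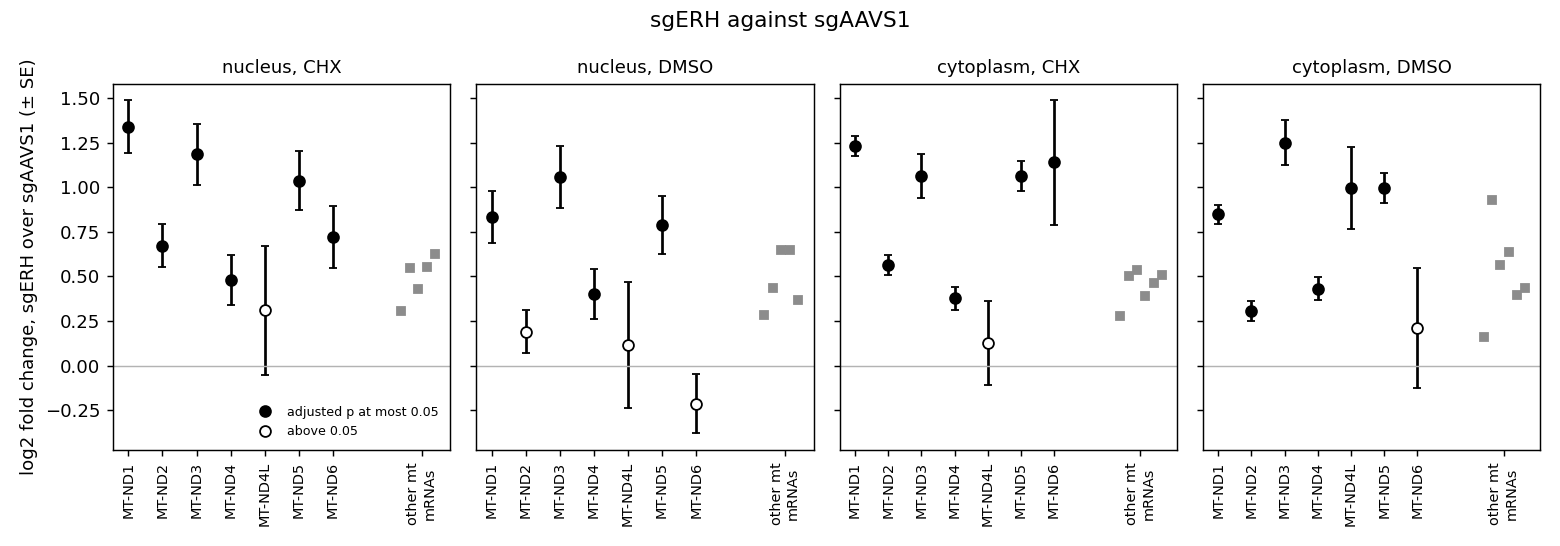
Log2 fold change of sgERH over sgAAVS1 (y axis) with its standard error for each of the 7 mRNAs (x axis) in each setting, beside the other mitochondrial mRNAs tested (grey squares, no error drawn). Filled points passed an adjusted p of 0.05; MT-ND1, MT-ND3 and MT-ND5 lie between 0.79 and 1.34 in all 4 settings.

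In the nuclear fraction with DMSO, 4 of the 7 were higher with sgERH and 0 lower, where 18% of all genes were called higher. Only MT-ND3 met the size rule, against 4.77% of all genes. MT-ND3 had 33.7, 25.7 and 27.5 CPM with sgERH, against 12.1, 16.2 and 13.4 CPM with sgAAVS1, a log2 fold change of 1.06 ± 0.17 (edgeR, adjusted p = 1.22e-04). MT-ND1 had 274, 290 and 293 CPM with sgERH, against 144, 194 and 143 CPM with sgAAVS1, a log2 fold change of 0.83 ± 0.15. MT-ND5 had 455, 519 and 608 CPM with sgERH, against 311, 340 and 265 CPM with sgAAVS1, a log2 fold change of 0.79 ± 0.16. All 3 mRNAs were separated by guide, as in the cytoplasm. Both fractions were made by dividing cells, so the nuclear libraries need not be independent of the cytoplasmic ones.

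MT-ND4 had 877, 888 and 984 CPM with sgERH in the nucleus with DMSO, against 624, 824 and 635 CPM with sgAAVS1. Its log2 fold change of 0.40 ± 0.14 passed (edgeR, adjusted p = 0.0319), but not when any 1 library other than sgAAVS1 replicate 2 was left out, where the adjusted p ran up to 0.141, nor with DESeq2 (adjusted p = 0.0970). MT-ND2 (log2 fold change 0.19 ± 0.12), MT-ND4L (0.12 ± 0.36) and MT-ND6 (-0.21 ± 0.16) did not pass, and their libraries overlapped between the guides. MT-ND2 did pass with library totals in place of TMM (0.32, adjusted p = 0.0488, edgeR) and in a fit of these 2 groups alone (0.19, adjusted p = 0.0491, edgeR). MT-ND6 had 39.9, 38.4 and 43.5 CPM with sgERH, against 51.7, 49.7 and 39.6 CPM with sgAAVS1.

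With CHX in the nucleus, 6 of the 7 were higher with sgERH and 0 lower, where 21.7% of all genes were called higher. MT-ND1, MT-ND3 and MT-ND5 met the size rule, against 5.29% of all genes. MT-ND1 had 166, 282 and 257 CPM with sgERH, against 88.6, 94.7 and 95.7 CPM with sgAAVS1, a log2 fold change of 1.34 ± 0.15 (edgeR, adjusted p = 1.47e-06). MT-ND3 had 25.4, 40.6 and 25.1 CPM with sgERH, against 14.8, 12.04 and 13.3 CPM with sgAAVS1, a log2 fold change of 1.18 ± 0.17. MT-ND5 had 375, 539 and 618 CPM with sgERH, against 203, 239 and 305 CPM with sgAAVS1, a log2 fold change of 1.04 ± 0.16. The guides did not overlap in any of these 3. MT-ND6 with 0.72 ± 0.17, MT-ND2 with 0.67 ± 0.12 and MT-ND4 with 0.48 ± 0.14 also passed, and MT-ND4 did not without sgAAVS1 replicate 1 (edgeR, adjusted p = 0.0627). MT-ND4L, at 0.31 ± 0.36, did not pass.

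The nuclear fractions of the guides also differed in measures of their makeup. Reads across exon-intron boundaries numbered 42.3 to 42.4 per 100 spliced reads in sgERH nuclei with DMSO, against 49.98 to 52.2 in sgAAVS1 nuclei, and with CHX 32.6 to 36.1 in sgERH nuclei, against 49.2 to 50.6 in sgAAVS1 nuclei. The summed level of 8 abundant cytoplasmic mRNAs, among them ACTB and GAPDH, was 7290 to 7599 CPM in sgERH nuclei with DMSO, against 6160 to 7114 CPM in sgAAVS1 nuclei, and with CHX 6702 to 7363 CPM in sgERH nuclei, against 4734 to 5146 CPM in sgAAVS1 nuclei. In the cytoplasm the summed level of 6 nuclear-retained RNAs was 967 to 1017 CPM with sgERH and DMSO, against 675 to 763 CPM with sgAAVS1, and with CHX 761 to 783 CPM with sgERH, against 529 to 608 CPM with sgAAVS1. Their part in the nuclear and cytoplasmic results was not tested.

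The other mitochondrial genes serve as background. In the cytoplasm with DMSO, 5 of the 6 other mitochondrial mRNAs were higher with sgERH, and the median log2 fold change was 0.85 for the complex I mRNAs, against 0.50 for these 6. With CHX it was again 5 of 6, and the medians were 1.06 for the complex I mRNAs, against 0.48 for the others. In the nucleus 4 of the 5 tested were higher with each treatment. The medians there were 0.72 for the complex I mRNAs, against 0.55 for the others, with CHX, and 0.40 against 0.43 with DMSO. Both mitochondrial rRNAs were higher with sgERH in all 4 settings. None of the mRNAs or rRNAs of mitochondrial DNA was lower with sgERH in any setting by this test.

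To separate a member's own change from that of the whole pool, each was divided by the summed counts of the 12 other mitochondrial mRNAs. The log2 ratio was compared between guides over both treatments by an exact two-sided permutation test within treatment, with 400 arrangements, a smallest possible p of 0.005, and 14 tests in all, whose p-values are unadjusted. In the cytoplasm the ratio was higher with sgERH by 0.66 for MT-ND3, 0.56 for MT-ND1 and 0.54 for MT-ND5 (log2, mean of both treatments, exact permutation p = 0.005 for each). It was lower for MT-ND4, by -0.13 (exact permutation p = 0.005). In none of these 4 did the guides overlap in either treatment. MT-ND2 (-0.08, exact permutation p = 0.135), MT-ND4L (0.06, exact permutation p = 0.845) and MT-ND6 (0.07, exact permutation p = 0.865) did not pass. For each of them the mean joins differences of opposite sign. With CHX and with DMSO these were 0.05 and -0.21 for MT-ND2, -0.38 and 0.51 for MT-ND4L, and 0.64 and -0.49 for MT-ND6. The guides overlapped in all of these but MT-ND2 with DMSO.

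Within the pool, the log2 ratio of MT-ND5 was -4.05, -4.07 and -3.90 in sgERH cytoplasm with DMSO, against -4.47, -4.58 and -4.51 in sgAAVS1 cytoplasm. That of MT-ND1 was -4.07, -4.19 and -4.21 with sgERH, against -4.51, -4.56 and -4.50 with sgAAVS1. MT-ND3, MT-ND1 and MT-ND5 thus took a larger part of the mitochondrial mRNA counts with sgERH in addition to the rise of the pool. The nuclear libraries gave MT-ND3 0.58 (exact permutation p = 0.01), MT-ND1 0.57 and MT-ND5 0.41 (exact permutation p = 0.005 for both). MT-ND4 was lower, at -0.10 (exact permutation p = 0.02), and MT-ND4L lower, at -0.28 (exact permutation p = 0.04). MT-ND2 (-0.11, exact permutation p = 0.175) and MT-ND6 (-0.26, exact permutation p = 0.18) did not pass in the nucleus. Their differences were 0.08 and 0.16 with CHX, where the guides overlapped, and -0.30 and -0.67 with DMSO, where they did not. With only the 6 mRNAs outside complex I as the pool, MT-ND4 and MT-ND4L no longer passed in the nucleus (exact permutation p = 0.2 and 0.06), and MT-ND4L also lost its call when sgERH replicate 1, 2 or 3 or sgAAVS1 replicate 2 with DMSO, or sgERH replicate 2 or 3 or sgAAVS1 replicate 3 with CHX, was left out (exact permutation p of up to 0.12).

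**Figure D3:**
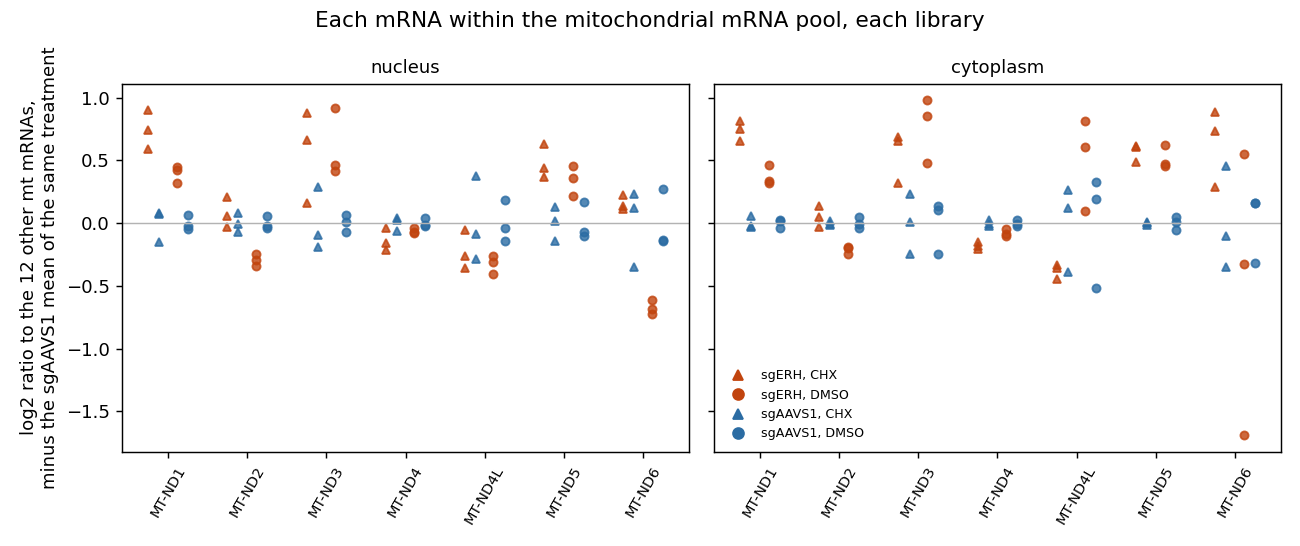
Log2 ratio of each mRNA to the 12 other mitochondrial mRNAs in every library, minus the sgAAVS1 mean of the same treatment (y axis), for the 7 mRNAs (x axis) in nucleus and cytoplasm; triangles are CHX, circles DMSO, red sgERH, blue sgAAVS1. MT-ND1 and MT-ND5 lie above 0 in every sgERH library, with mean differences of 0.41 to 0.57, while 1 sgERH library of MT-ND6 in the cytoplasm lies far below the rest.

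CHX against DMSO asked how the mRNAs stood after 4 h without cytosolic translation. In sgERH cytoplasm 6 of the 7 were lower with CHX and 0 higher, where 27% of all genes were called lower, and MT-ND6 did not pass (log2 fold change -0.01 ± 0.34). In sgAAVS1 cytoplasm 5 were lower and 0 higher, where 34.2% of all genes were called lower, and MT-ND3 (-0.25 ± 0.12) and MT-ND4L (-0.23 ± 0.24) did not pass. MT-ND1 changed by -0.65 ± 0.05 in sgERH cytoplasm and by -1.03 ± 0.05 in sgAAVS1 cytoplasm, and MT-ND2 by -0.64 ± 0.06 in sgERH and by -0.90 ± 0.06 in sgAAVS1 cytoplasm. The other mitochondrial mRNAs had medians of -0.44 in sgERH and -0.45 in sgAAVS1 cytoplasm, with 5 of 6 lower in each.

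In nuclei fewer passed. In sgERH nuclei MT-ND6 (-0.89 ± 0.17) and MT-ND2 (-0.36 ± 0.12) were lower, 2 of the 7, where 25.4% of all genes were called lower, and 1 passed without sgERH replicate 2 or 3 with DMSO or without sgERH replicate 1 with CHX. In sgAAVS1 nuclei MT-ND6 (-1.82 ± 0.18), MT-ND2 (-0.84 ± 0.12) and MT-ND1 (-0.78 ± 0.15) were lower, 3 of the 7, where 29.2% of all genes were called lower. MT-ND6 had 9.21, 14.7 and 16.1 CPM in sgAAVS1 nuclei with CHX, against 51.7, 49.7 and 39.6 CPM with DMSO. In sgERH nuclei it had 17.2, 25.2 and 23.6 CPM with CHX, against 39.9, 38.4 and 43.5 CPM with DMSO. The CHX and DMSO libraries did not overlap with either guide. Counts of MT-ND6 may hold reads from the other strand of the gene, since the use of strand in counting is not stated.

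**Figure D4:**
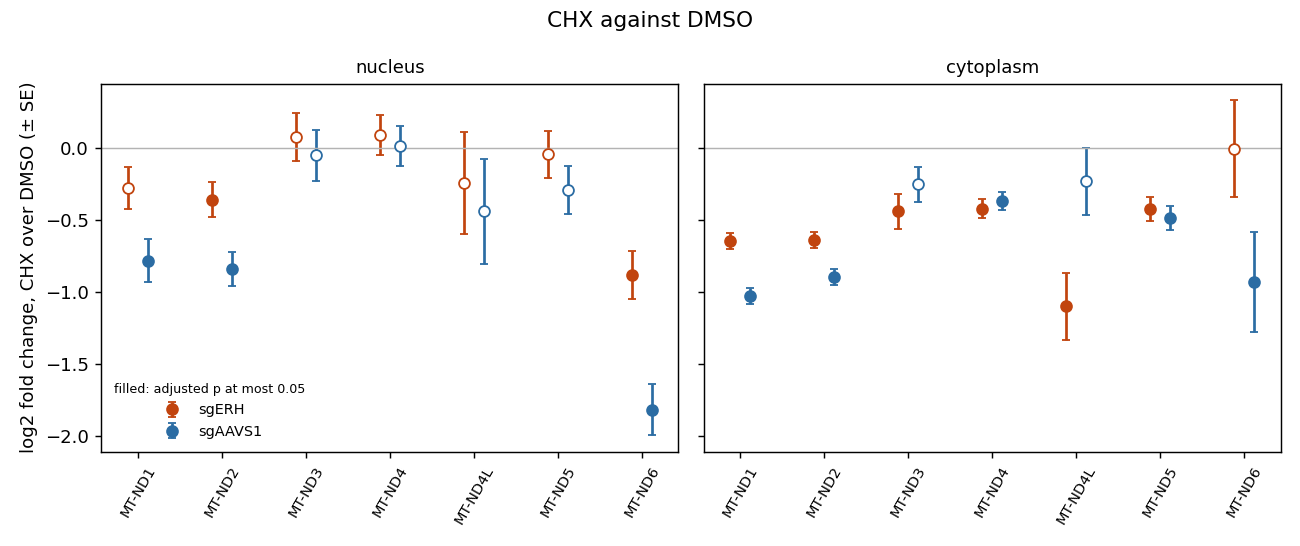
Log2 fold change of CHX over DMSO (y axis, ± SE) for each mRNA (x axis) in nucleus and cytoplasm, with sgERH in red left of sgAAVS1 in blue; filled points passed an adjusted p of 0.05. All changes that passed are below 0, and the largest decrease is that of MT-ND6 in sgAAVS1 nuclei, at -1.82.

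The difference between the sgERH effect with CHX and that with DMSO was tested as an interaction, which is also the difference between the CHX effects of the guides. In the cytoplasm it passed for MT-ND1 (0.38 ± 0.08, adjusted p = 0.00146, edgeR) and MT-ND2 (0.26 ± 0.08, adjusted p = 0.0234, edgeR), 2 of the 7, where 14.8% of all genes were called higher. Only 1 of the 7 passed with library totals in place of TMM, with scaling that left out mitochondrial genes, and without sgAAVS1 replicate 1 or 2 of either treatment. In the nucleus it passed for MT-ND6, 1 of the 7 (0.93 ± 0.24, adjusted p = 0.0107, edgeR), where 8.86% of all genes were called higher, and 3 of the 7 passed without sgERH replicate 1 with CHX and 2 without sgAAVS1 replicate 3 with DMSO. MT-ND3, MT-ND4 and MT-ND5 had interactions between -0.19 and 0.25 in both fractions, none of which passed. Larger ones in the cytoplasm went either way and did not pass. They were -0.87 ± 0.33 for MT-ND4L (edgeR, adjusted p = 0.0659) and 0.93 ± 0.48 for MT-ND6 (edgeR, adjusted p = 0.182).

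The sgERH effect in the nucleus was also set against that in the cytoplasm. In a fit that treated the libraries as unpaired, with DMSO 0 of the 7 passed, where 18.2% of all genes were called higher and 14.5% lower. With CHX 0 of the 7 passed, where 18.9% of all genes were called higher and 12.9% lower. In both cases of this fit 0 passed at an unadjusted p of at most 0.05 in edgeR, and 0 passed with DESeq2. With CHX 3 of the 7 passed without nuclear sgERH replicate 1, and with DMSO 1 passed without cytoplasmic sgERH replicate 1 or 3. The sample descriptions of both fractions carry the same running numbers, and with that number as a block MT-ND4L passed with DMSO (-0.86 ± 0.27, adjusted p = 0.0220, edgeR), 1 of the 7, where 14.4% of all genes were called lower, while with CHX 0 of the 7 passed in either fit. The sgERH effect on MT-ND4L with DMSO was 0.12 in the nucleus and 1.00 in the cytoplasm. The nuclear value rested on 38 to 57 counts per library with sgAAVS1 and 54 to 75 with sgERH. MT-ND4, on the same bicistronic mRNA, had -0.0005 ± 0.096 with the block and DMSO and did not pass. Without the block the interactions ran from -0.85 ± 0.41 for MT-ND4L to 0.00 ± 0.13 for MT-ND1 with DMSO, and from -0.32 ± 0.31 for MT-ND6 to 0.28 ± 0.31 for MT-ND4L with CHX. By contrast, both mitochondrial rRNAs had a larger sgERH effect in the nucleus than in the cytoplasm, by a median of 1.03 with CHX and 0.89 with DMSO (log2), and both passed with each treatment, with and without the block.

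In sgAAVS1 cells with DMSO the nucleus was compared with the cytoplasm on a common scale, from a shared TMM scaling of both fractions. Each level is relative to the other poly(A)-selected RNA of its library. The fractions differ much in makeup, so the size of a difference depends on this scaling. Of the 7 mRNAs, 6 were lower in the nucleus, where 40.6% of all genes were called lower, with log2 fold changes of -3.67 ± 0.15 (MT-ND3) to -2.65 ± 0.12 (MT-ND5). All 6 other mitochondrial mRNAs were lower too, at a median of -3.46. MT-ND6 was higher in the nucleus, by 1.47 ± 0.31 (edgeR, adjusted p = 2.81e-04), where 42.9% of all genes were called higher. By CPM, which were scaled within each fraction, MT-ND6 had 51.7, 49.7 and 39.6 in these nuclei, against 10.9, 16.2 and 16.9 in the cytoplasm, with no overlap. Nuclear copies held on average 0.584% of the counts of MT-ND6 and its copies in these nuclei. Whether the counting used the strand is not stated. These counts may therefore hold reads from the other strand of the gene or over its boundary with MT-ND5, and need not measure MT-ND6 mRNA alone. By the same CPM the nuclear mean of MT-ND6 was also above the cytoplasmic mean in the other guide and treatment combinations. It was 1.3 times as high with sgERH and CHX, 1.74 times with sgAAVS1 and CHX and 2.38 times with sgERH and DMSO. None of these was tested, and none is on the common scale of the fit.

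**Figure D5:**
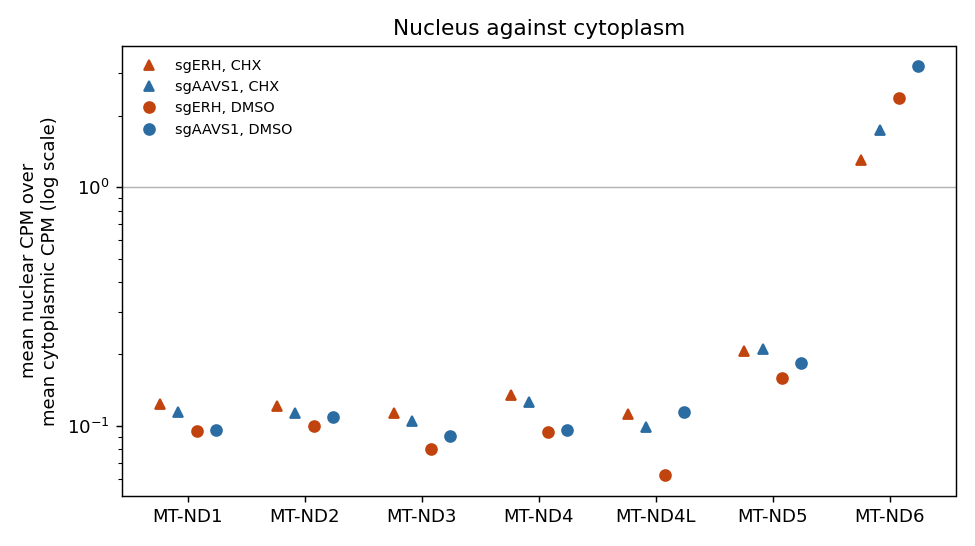
Mean nuclear CPM divided by mean cytoplasmic CPM (y axis, log scale; CPM scaled within each fraction) for each mRNA (x axis), with sgERH in red left of sgAAVS1 in blue, CHX as triangles and DMSO as circles. Only MT-ND6 lies above 1, at 1.3 to 3.21, and the other 6 lie between 0.062 and 0.211.

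Most nuclear genes of complex I moved the other way in the cytoplasm with DMSO. Of 37 nuclear subunit genes, 29 were lower and 0 higher with sgERH in the cytoplasm with DMSO. Of all genes, 28.7% were called lower there and 28.4% higher. The median log2 fold change was -0.35 for the subunit genes, against 0.04 for all genes. All 7 nuclear core subunits were among the 29. With CHX 15 subunit genes were lower and 1, NDUFB9, was higher, at a median of -0.19. Of all genes, 24.7% were called lower there and 25.3% higher. NDUFA10, a nucleoside kinase-like accessory subunit, had 68.1, 66.9 and 66.5 CPM in sgERH cytoplasm with DMSO, against 128, 119 and 118 CPM in sgAAVS1 cytoplasm, a log2 fold change of -0.86 ± 0.05. NDUFS6 (-0.79 ± 0.17) and the core subunit NDUFV2 (-0.76 ± 0.07) had the next largest decreases. In the nucleus the direction was mixed, with 11 higher and 5 lower with DMSO, where 18% of all genes were called higher and 18.2% lower, and 15 higher and 5 lower with CHX, where 21.7% of all genes were called higher and 23.1% lower. NDUFA10 was lower there too, by -0.76 ± 0.07 with DMSO, while NDUFS4 (0.95 ± 0.20) and NDUFB7 (0.93 ± 0.15) were higher.

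Complex I assembly factors, which help to build the enzyme without staying in it, gave 10 of 19 lower and 1 higher in sgERH cytoplasm with DMSO, where 28.7% of all genes were called lower and 28.4% higher, at a median of -0.19. ACAD9 (-0.98 ± 0.07), NDUFAF8 (-0.86 ± 0.25) and NDUFAF3 (-0.83 ± 0.10) had the largest decreases, and ECSIT was higher (0.19 ± 0.07). With CHX 6 were lower and 1 higher, where 24.7% of all genes were called lower and 25.3% higher. In the nucleus 3 were higher and 5 lower with DMSO, against 18% and 18.2% of all genes, and 6 were higher and 3 lower with CHX, against 21.7% and 23.1% of all genes.

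Of 28 genes for mitochondrial transcription, RNA processing and DNA replication, 27 were tested. In sgERH cytoplasm with DMSO 21 were lower and 1 higher, where 28.7% of all genes were called lower and 28.4% higher. The 1 higher was POLG2, an accessory subunit of the mitochondrial DNA polymerase (0.41 ± 0.09). With CHX 7 were lower and 6 higher, near the 24.7% and 25.3% of all genes. In the nucleus 8 were lower and 1 higher with DMSO, where 18.2% and 18% of all genes were, and 7 were lower and 7 higher with CHX, near the 23.1% and 21.7% of all genes. TBRG4 and FASTKD1 encode mitochondrial RNA-binding proteins known to affect the level of MT-ND3 mRNA. TBRG4 had 82.5, 78.5 and 93.4 CPM in sgERH cytoplasm with DMSO, against 135, 122 and 132 CPM in sgAAVS1 cytoplasm, a log2 fold change of -0.61 ± 0.06, and it was lower in all 4 settings. FASTKD1 had 53.2, 54.4 and 49.0 CPM with sgERH, against 67.7, 70.1 and 66.6 CPM with sgAAVS1, a log2 fold change of -0.38 ± 0.06. In the cytoplasm with CHX FASTKD1 was instead higher with sgERH (0.55 ± 0.06), and it was lower in the nucleus with both treatments (-0.32 ± 0.08 with CHX and -0.37 ± 0.08 with DMSO).

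Over the 12 cytoplasmic libraries the log2 levels of the 7 mRNAs were described by their pairwise Pearson correlations, which share libraries, depth and the guide and treatment groups. MT-ND1, MT-ND4 and MT-ND5 had r between 0.92 and 0.95 with each other, MT-ND1 and MT-ND2 0.93, and MT-ND6 had r of 0.21 to 0.60 with the others. Among 10124 nuclear protein-coding genes at a mean of at least 5 CPM, those whose pattern was most like the mean of the 7 were TMX2 (r = 0.98), TMEM39A, SAMD5, ASAH1 and HTATIP2 (r = 0.98 for each).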

How the data were processed

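The 7 mRNAs and all lists were chosen with earlier results of these data known. The authors trimmed reads with fastp 0.23.4 per the labels, aligned them with STAR and quantified GRCh38 transcripts with salmon. The authors deposited expected counts per transcript, TPM and transcript lengths (other: bases). Expected counts were summed per gene and rounded, and deposited TPM were used only to compare genes. The deposited IRFinder tables gave counts of boundary and spliced reads. Gene names came from GRCh38 annotation (62700 of 62754 matched). No 2 libraries were identical. The labels call the 3 libraries of a group biological replicates, and p-values measure the spread between them.

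Python 3.11.15, R 4.3.3 and edgeR 4.0.16 were used: filterByExpr (minimum count 10), TMM, quasi-likelihood F test, 12 libraries per fit (1 fraction, or 1 treatment for contrasts between fractions), with Benjamini-Hochberg adjustment over all genes. All 7 mRNAs passed the filter. "Changed" means an adjusted p of at most 0.05. The SE is the absolute log2 fold change over the square root of F. The ratio test used a pseudocount of 0.5. In simulated counts for the cytoplasm with DMSO, 75% of genes changed 1.5-fold were recovered, and in the nucleus with DMSO 55%. Named genes were the 7 mRNAs, ERH, TBRG4, FASTKD1, the 3 largest changes each way per list, and the 5 most correlated genes. DESeq2 1.42.0, other scalings, no filter, a length offset, added nuclear copies, a replicate block (the shared running number between fractions) and leaving out libraries were tried. Reads were not used here.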

Additional observations from a re-analysis of the deposited data

Results flagged for a closer look

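The interaction test in edgeR, for a difference in the sgERH effect between CHX and DMSO, was passed by 3 results. By that test 14.8% of all genes in the cytoplasm and 8.86% in the nucleus were called higher. In the cytoplasm the sgERH effect was larger with CHX for MT-ND1, by 0.38 on the log2 scale, and for MT-ND2, by 0.26. In the nucleus it was larger with CHX for MT-ND6, by 0.93, with a log2 fold change of 0.72 with CHX and -0.21 with DMSO. With 1 library left out, 1 to 3 of the 7 mRNAs passed in each fraction, and other scalings also changed the counts. No test for a single library that stands apart was run in these groups of 3, and the values without each library in turn are given with the processing.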

How the results depend on the processing

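Over the sgERH comparisons, 221 of 224 values of a single mRNA under another setting, and 158 of 168 with 1 library left out, kept their direction and their side of the threshold. Leaving out 1 library turned the direction of MT-ND6 in the cytoplasm with DMSO (range -0.43 to 0.59), of MT-ND4L in the cytoplasm with CHX (-0.022 to 0.25) and in the nucleus with DMSO (-0.017 to 0.35), and of the pool ratios of MT-ND4L (-0.066 to 0.16) and MT-ND6 (-0.19 to 0.37) in the cytoplasm, none of which had passed. With DMSO libraries alone the MT-ND6 ratio in the cytoplasm was -0.49, and 0 ratios passed in either fraction, since an exact permutation test of 3 against 3 libraries cannot go below p = 0.1. With the 6 other mRNAs as the pool 3 nuclear ratios passed in place of 5. For the interaction of guide and CHX in the cytoplasm 2 mRNAs passed, against 1 with library totals, 1 with scaling without mitochondrial genes, 4 with no filter, and 1 to 3 with 1 library left out. In the nucleus 1 passed, against 2 with DESeq2, 2 with library totals, 3 with no filter and 1 to 3 with 1 library left out. For CHX in sgERH nuclei 2 passed, against 1 with library totals and 1 to 3 with 1 library left out. For the sgERH effect between fractions 0 passed, against 2 with no filter (DMSO), 0 to 1 with 1 library left out (DMSO) and 0 to 3 (CHX). The causes were not tested. Counts were few for MT-ND4L in the nucleus, with 22 to 75 per library.

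Within a fraction the main fits did not take the replicate numbers to pair the libraries, although same-numbered libraries were somewhat more alike. In the cytoplasm 8 of 18 same-numbered pairs had deviations correlated above 0.1, against 6 of 36 other pairs (median r 0.082 against -0.041). In the nucleus 7 of 18 did, against 4 of 36 other pairs (median r 0.081 against -0.036). A library correlated best with its own number in 23 of 36 cases in the cytoplasm and 16 of 36 in the nucleus. Between the fractions, whose sample descriptions share a running number, 7 of 12 same-numbered pairs were above 0.1 (median r 0.15), against 2 of 24 other pairs (median r -0.066). With a replicate block 2 mRNAs passed for the difference between CHX and DMSO in the nucleus, in place of 1, and 1 for the difference between fractions with DMSO, in place of 0. The block moved no other count of calls by over 1.5 times.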
